A study of Mus musculus with 3 samples.

Results

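The *Hox* and *Cdx* genes were examined in the embryonic region of wild-type mouse embryos at the early headfold (EHF) stage. The members were all gene symbols of the deposited table that are named *Hoxa*, *Hoxb*, *Hoxc* or *Hoxd* followed by a number, together with *Cdx1*, *Cdx2* and *Cdx4*. This rule found 42 genes among 30854 symbols, of which 39 are *Hox* genes and 3 are *Cdx* genes. Total RNA was hybridized to 3 Illumina Mouse-6 arrays, labelled replicates 1, 2 and 3, which form a single group and carry no mutation, treatment or other condition. The labels give the strain as Cd-1, and the methods of the study name wild-type ICR mice. The extraembryonic region had been removed by dissection. Neither source says whether an array holds 1 embryo or a pool, so how much of the spread between arrays is biological and how much technical is not known.

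*Hox* genes encode homeodomain transcription factors that give cells of the body axis their anterior-posterior identity. In the mouse they lie in 4 clusters, HoxA to HoxD, and genes at the same relative position in different clusters share a paralogue number. Genes at the 3′ end of a cluster, which have low numbers, are known to be activated earlier and further anteriorly than genes at the 5′ end, which have high numbers. *Cdx* genes encode related homeodomain factors of the posterior embryo that bind regulatory sequences of *Hox* genes.

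A gene was called detected where its detection p, which for a gene with 1 probe says how large a part of the negative-control probes was at least as bright, was under 0.01 on all 3 arrays. For the 13 genes with several probes the deposited value is a combined p, and 5 of these genes are among the detected ones (*Cdx1*, *Hoxa2*, *Hoxb1*, *Hoxb7* and *Hoxd9*). Of the 16 genes of paralogues 9 to 13, 7 have several probes. The threshold of 0.01 therefore does not mean the same for genes with several probes as for genes with 1. By the detection rule 13 of the 42 genes were detected, beside 20.6% of all symbols. Those described below were *Cdx1*, *Cdx2*, *Hoxa2*, *Hoxa5*, *Hoxb1*, *Hoxb2*, *Hoxb4*, *Hoxb5*, *Hoxb6*, *Hoxb7*, *Hoxc6* and *Hoxd9*. Another 8 genes passed on 1 or 2 arrays, so that 21 of 42 passed on at least 1 array, beside 33.0% of all symbols. The remaining 21 genes, all of them *Hox* genes, passed on none. The arrays hold RNA of whole embryonic regions, and fewer expressing cells cannot be told apart from less RNA per cell.

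Detection was uneven along the clusters. Of the 12 genes of paralogues 1 to 4, 5 were detected, and of the 11 genes of paralogues 5 to 8, 5 were detected. Of the 16 genes of paralogues 9 to 13, only *Hoxd9* was detected, and 14 of them passed on no array. No gene of paralogues 11, 12 or 13 passed on any array. The median level relative to background was -0.03 for paralogues 1 to 4, -0.19 for paralogues 5 to 8 and -0.59 for paralogues 9 to 13 on the log2 scale, where the median over all symbols was -0.59 as well. Clusters also differed in number, with 6 of 10 HoxB genes, 1 of 9 HoxC genes and 1 of 9 HoxD genes detected. The share of all symbols detected was 20.6%. On at least 1 array, 6 of 10 HoxB, 1 of 9 HoxC and 5 of 9 HoxD genes passed, beside 33.0% of all symbols. These counts are a description of 1 group of embryos, and no test between clusters or classes was run because genes are not replicates.

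Promoter sequences from RefSeq (GRCm38.p6) were available for 24 of the 42 genes, 6 of them detected ones (*Cdx2*, *Hoxa2*, *Hoxa5*, *Hoxb1*, *Hoxb4* and *Hoxd9*). The 250 bases before the start were searched on both strands for 3 short motifs, TGATNNAT, which Hox and Pbx proteins bind together, TTTATG, which Cdx proteins bind, and TGACAG, which Meis proteins bind. A match is a description of the letters and no evidence of binding. TGATNNAT was present in *Hoxa2*, *Hoxb1*, *Hoxb8* and *Hoxd11*. In *Hoxb1*, *Hoxb8* and *Hoxd11* it lay before a start that differs from the gene start in the RefSeq annotation. *Hoxd11* has a further listed start, and its TTTATG match lies before that one. Over all 32851 promoters, TGATNNAT was present in 7.68%. The stretches around it in the detected genes are shown first because *Hoxb1* and *Hoxa2* carry out early hindbrain patterning, with the match in capitals and each line read 5′ to 3′ on the strand of the gene.
Hoxb1 (chr11:96365584-96365615, + strand): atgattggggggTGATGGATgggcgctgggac
Hoxa2 (chr6:52164923-52164954, - strand): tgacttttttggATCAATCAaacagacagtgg

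The whole stretch before the start of *Hoxa2* also held a Meis motif nearer the start, and its capitals mark both matches, which do not overlap.
Hoxa2 (chr6:52164832-52165081, - strand): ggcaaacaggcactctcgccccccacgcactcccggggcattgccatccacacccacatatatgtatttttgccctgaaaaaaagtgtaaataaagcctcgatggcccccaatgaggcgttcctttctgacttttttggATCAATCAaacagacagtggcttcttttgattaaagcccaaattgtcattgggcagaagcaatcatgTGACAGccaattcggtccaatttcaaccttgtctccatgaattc

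The Meis motif occurred in 15.9% of all promoters and, among these genes, in *Hoxa2* and *Hoxa3*. The Cdx motif occurred in 10.8% of all promoters and in 5 of the 24 genes, *Hoxa7*, *Hoxb8*, *Hoxd3*, *Hoxd4* and *Hoxd11*. None of the 6 detected genes with a promoter held it in this window, which says only that these letters are absent there. The stretches are shown because *Hoxa7*, *Hoxd3* and *Hoxd4* are among the genes that passed on some arrays, while *Hoxb8* and *Hoxd11* passed on none, *Hoxb8* holding the motif on both strands.
Hoxa7 (chr6:52218792-52218821, - strand): tgtgaagtcgggTTTATGatgtgcaatcga
Hoxa7 (chr6:52218729-52218758, - strand): tggcctgagcagTTTATGaggcgtttaggg
Hoxb8 (chr11:96281736-96281765, + strand): atgctaacagctTTTATGcgctgcagcata
Hoxb8 (chr11:96281750-96281779, + strand): tatgcgctgcagCATAAAcaacaacagact
Hoxd3 (chr2:74711816-74711845, + strand): gtaatagaccttTTTATGacctatttgcgg
Hoxd4 (chr2:74721921-74721950, + strand): agccaaaggttaTTTATGgttctgcagagc
Hoxd11 (chr2:74679459-74679488, + strand): ttcctaaaagagCATAAAtaattaaagttt

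Signals are given as deposited, on the log2 scale, and the background level of an array is the weakest signal at which a single-probe symbol still passed, leaving out those with a detection p of 0. For replicates 1, 2 and 3 this level came to 6.69, 6.66 and 6.58. Levels above background were computed after background correction and quantile normalization, and a one-sided limma test was applied to them, with p-values adjusted with the Benjamini-Hochberg method over all symbols. This test called 7871 symbols, or 25.5%. It called 13 of the 42 genes, the same 13 as detection did. This match is partly built in, since the background level was set from the detection p of the same arrays. All genes received 1 common standard error of 0.16 in this fit, whatever their own spread, and for that reason the largest adjusted p over 8 alternative settings is given beside the level. The SD printed beside a level is that of the normalized level over the 3 arrays, before the background was subtracted. Signals of different probes depend on how well each hybridizes, so the order of levels between genes is not read as an order of expression.

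*Cdx2*, which acts in trophoblast as well as in the posterior embryo, gave signals of 9.88, 9.60 and 9.12 in the order of the replicate numbers, all brighter than every negative control (detection p of 0). Its level was 4.53 above background (SD 0.07, n = 3), and the largest adjusted p from limma over the alternatives was 0.0004. All 3 arrays were far above background, with levels of 4.78, 4.58 and 4.24 on replicates 1, 2 and 3 and the lowest signal on replicate 3. Markers of extraembryonic ectoderm, where *Cdx2* is also expressed, were read beside it. Of 14 extraembryonic ectoderm and trophoblast markers on the array, 4 were detected (*Tcfap2c*, *Bmp4*, *Ets2* and *Rhox5*), while *Elf5*, *Eomes*, *Gcm1*, *Prl3d1* and *Tpbpa* were among 8 that passed on no array. The sum of the normalized log2 levels of the 14 markers, including the 8 that passed on no array, was 75.6, 77.5 and 74.9 on replicates 1, 2 and 3. As deposited, *Rhox5* had signals of 9.81, 9.92 and 8.43, and *Ets2* 9.04, 8.83 and 8.12. *Tcfap2c* had 7.91, 7.75 and 7.37, and *Bmp4* 8.29, 8.24 and 7.87. Each detected marker was thus lowest on replicate 3, as were 93.4% of all detected symbols. The part of the markers in the *Cdx2* signal was not tested.

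*Cdx1*, which is active in the primitive streak and the neural tube and mesoderm derived from it, had signals of 8.01, 7.70 and 7.71, again with a detection p of 0 on each array. Its level was 2.40 above background (SD 0.26, n = 3; largest adjusted p from limma over the alternatives 0.000555). *Cdx4*, the X-linked member, had signals of 6.79, 6.76 and 6.52 and detection p-values of 0.00214, 0.00107 and 0.0331. It thus passed on replicates 1 and 2 and missed on replicate 3, where its signal minus the background level was -0.06. Its level was 0.11 above background with a limma adjusted p of 0.891.

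The most 3′ genes of HoxB, *Hoxb1* and *Hoxb2*, pattern the hindbrain. *Hoxb1* had signals of 8.97, 8.47 and 8.39, and its level was 3.47 above background (SD 0.22, n = 3; largest adjusted p from limma over the alternatives 0.000557). *Hoxb2* had signals of 8.05, 7.69 and 7.56, and its level was 2.33 above background (SD 0.16, n = 3; largest adjusted p from limma 0.00121). For both genes replicate 1 was highest and replicate 3 lowest before normalization, as 84.9% of all detected symbols were highest on replicate 1 and 93.4% lowest on replicate 3.

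*Hoxa2*, which specifies the second pharyngeal arch, had signals of 7.29, 7.06 and 6.97, a level of 1.20 above background (SD 0.18, n = 3; largest adjusted p from limma 0.0038). *Hoxd1*, the paralogue 1 gene of HoxD, had signals of 6.61, 6.46 and 6.31 and passed on no array, with detection p-values of 0.0748, 0.475 and 0.832.

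**Figure D1:**
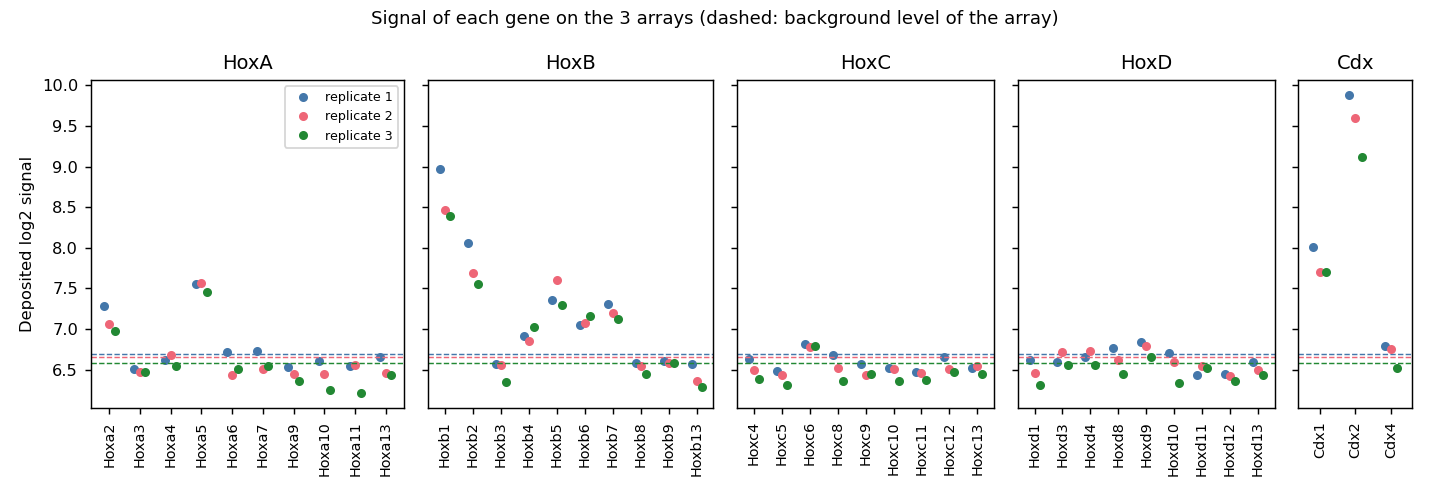
Deposited log2 signals (vertical axis) of the genes described here on replicates 1, 2 and 3 (points), in panels by cluster with genes ordered by number, and the background level of each array as a dashed line of the same colour. *Hoxb1*, *Hoxb2*, *Cdx1* and *Cdx2* stand well above the lines on all arrays, and paralogues 9 to 13 lie at or near the lines in all clusters.

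None of the 3 genes of paralogue 3 was detected. *Hoxa3*, which acts in thymus and parathyroid formation, had signals of 6.51, 6.47 and 6.47 and passed on no array. Its detection p on replicate 3, combined over probes, was 0.0106, with a signal minus the background level of -0.11. *Hoxb3* had signals of 6.57, 6.55 and 6.35 and passed on none. *Hoxd3* had signals of 6.59, 6.71 and 6.56 and passed on replicate 2 alone, with a detection p of 0.00321. *Hoxa3* and *Hoxb3* are measured by at least 3 and 4 probes, so their signals and detection p-values are combined over probes. Among the HoxB genes numbered 1 to 7, *Hoxb3* was the only one not detected.

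Of the paralogue 4 genes, *Hoxb4* was detected. Its signals were 6.92, 6.85 and 7.02, and its level was 0.82 above background (SD 0.60, n = 3). Replicate 3 was the highest and accounted for much of this spread, with a normalized level of 6.36 against 5.26 on replicate 1 and 5.39 on replicate 2. The levels above background were 0.60, 0.59 and 1.29 on replicates 1, 2 and 3. The limma adjusted p of *Hoxb4* rose to 0.0759 when the same background level was used for every array. *Hoxa4* and *Hoxd4* passed on replicate 2 alone, with detection p-values of 0.00641 and 0.00321, and *Hoxc4* passed on no array.

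Paralogue 5 genes act in trunk structures such as the lung and ribs. *Hoxa5* had signals of 7.56, 7.57 and 7.46, and its level was 1.98 above background (SD 0.32, n = 3; largest adjusted p from limma 0.000833). *Hoxb5* had signals of 7.36, 7.60 and 7.30, and its level was 1.78 above background (SD 0.41, n = 3; largest adjusted p from limma 0.00232). *Hoxc5* had signals of 6.48, 6.44 and 6.31 and passed on no array.

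Paralogue 6 and 7 genes act in the thoracic region. *Hoxb6* had signals of 7.04, 7.08 and 7.16, and its level was 1.18 above background (SD 0.55, n = 3; largest adjusted p from limma 0.0209). *Hoxb7* had signals of 7.31, 7.19 and 7.13, and its level was 1.42 above background (SD 0.27, n = 3; largest adjusted p from limma 0.00136). *Hoxc6* had signals of 6.81, 6.78 and 6.80, close above background on each array, and its level was 0.48 (SD 0.41, n = 3).

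The *Hoxc6* call of limma was lost when the same background level was used for every array and when replicate 2 was left out, and its largest adjusted p over the alternatives was 0.118. Its detection p was 0.00107 on replicates 1 and 2 and 0 on replicate 3. *Hoxa6* and *Hoxa7* passed on replicate 1 alone, with detection p-values of 0.00641 and 0.00534. *Hoxa6* had a signal minus background of -0.22 on replicate 2, with a detection p of 0.610.

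Among paralogues 8 to 10, which act from the thoracic to the lumbar and sacral regions, *Hoxd9* had signals of 6.84, 6.79 and 6.66 and detection p-values of 6.91e-05, 9.13e-06 and 0.00154. Its level was 0.38 above background (SD 0.15, n = 3) with a limma adjusted p of 0.0408, and the call held in 4 of 8 alternatives, with a largest adjusted p of 0.288. It is measured by at least 2 probes, so its signal and detection p are combined values. *Hoxd8* and *Hoxd10*, its neighbours, passed on replicate 1 alone, with detection p-values of 0.00214 and 0.00748. *Hoxa9*, *Hoxb9*, *Hoxc9*, *Hoxb8*, *Hoxc8*, *Hoxa10* and *Hoxc10* passed on no array. *Hoxb9* had a detection p of 0.0107 on replicate 3, just above the threshold, and a level of -0.19 relative to background.

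The genes of paralogues 11 to 13, which pattern the distal limb, tail and urogenital region, were *Hoxa11*, *Hoxa13*, *Hoxb13*, *Hoxc11*, *Hoxc12*, *Hoxc13*, *Hoxd11*, *Hoxd12* and *Hoxd13*. Over all 21 genes that passed on no array, mean signals ran from 6.40 to 6.59 and levels from -0.79 to -0.19 relative to background. At this signal over background a weak transcript of these genes was not detectable, and its absence is not shown.

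**Figure D2:**
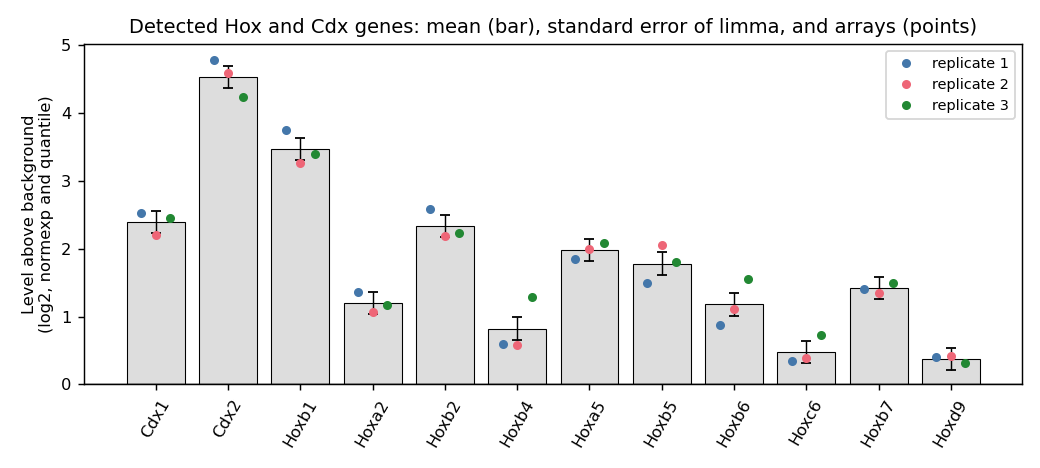
Level above the background of the same array (vertical axis, log2 scale after normalization) for the 12 detected genes described here, with bars for the mean of 3 arrays, error bars for the standard error of limma (0.16 for each gene) and points for single arrays. Bars of different genes come from different probes and are not to be ranked; points of *Hoxb4* and *Hoxb6* are spread most, with replicate 3 at the top.

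The arrays differed in how the detected genes stood relative to each other. After normalization, 11 of the 13 were highest on replicate 3, where 41.2% of the 6357 detected symbols were. *Cdx2* departed from this and was highest on replicate 1. The 7 detected genes of paralogues 4 to 9, a group formed after the values were seen, were all highest on replicate 3 and all lowest on replicate 1. Among 2366 detected symbols with mean signals in the same range (6.76 to 7.53), 38.1% were highest on replicate 3 and 30.6% were lowest on replicate 1.

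The value of replicate 3 minus the average of replicates 1 and 2 was 1.03 for *Hoxb4*, 0.89 for *Hoxb6*, 0.69 for *Hoxc6*, 0.49 for *Hoxa5*, 0.46 for *Hoxb7*, 0.36 for *Hoxb5* and 0.23 for *Hoxd9*, all on the log2 scale. Their median was 0.49, where the detected symbols in the same signal range had a median of 0.02. For *Hoxb5*, replicates 2 and 3 were nearly equal, at normalized levels of 6.86 and 6.87, and replicate 1 was at 6.16. The detected genes of paralogues 1 and 2 had a median difference of 0.20 on replicate 3, *Cdx1* had 0.42, above *Hoxb5* and *Hoxd9*, and *Cdx2* had -0.11, so higher values on replicate 3 were not particular to the 7 genes. The SD between arrays had a median of 0.41 for the 7 genes and 0.20 for the symbols in their signal range. With 1 group there is no test of these differences.

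The counts depended on the scale. As deposited, 2 of the 7 genes were highest on replicate 3 and 4 were lowest there. Of the symbols in their signal range, 0.80% were highest on replicate 3 and 92.1% were lowest there. The median difference of the 7 genes on that array was -0.10. It was -0.30 for the symbols in their signal range and -0.38 for all detected symbols. The median SD of the 7 genes as deposited was 0.09, beside 0.20 for the symbols in their signal range. The normalized background level itself was 4.67, 4.81 and 5.07 on replicates 1, 2 and 3. After it was subtracted, 5 of the 7 genes were highest on replicate 3. *Hoxb5* was highest on replicate 2 with a level of 2.05, and *Hoxd9* was lowest on replicate 3 with a level of 0.31. The share of other symbols was not computed on this scale. When arrays were centred on the median of all symbols, 3 of the 7 were highest on replicate 3, beside 4.99% of the symbols in their signal range. When they were centred on the median of the detected symbols, 7 of 7 were, beside 64.7%.

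The standard error over beads, for the genes with 1 probe by inference, had a median of 4.11% of the linear signal and reached 10.9%. For *Hoxb4* it was 0.05, 0.06 and 0.09 on the log2 scale on replicates 1, 2 and 3, and for *Hoxb6* 0.06, 0.07 and 0.08.

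Marker lists moved between the arrays too. The 10 visceral endoderm markers, all of them detected, had summed normalized log2 levels of 88.2, 91.7 and 85.0 on replicates 1, 2 and 3. Their mean per gene was 8.82, 9.17 and 8.50 on the log2 scale. The 7 markers of posterior tissue, streak and mesoderm on the array, also all detected, had sums of 54.1, 50.2 and 51.2. Their mean per gene was 7.72, 7.18 and 7.31, so that they were highest on replicate 1. The part of either list in the *Hox* differences was not tested.

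**Figure D3:**
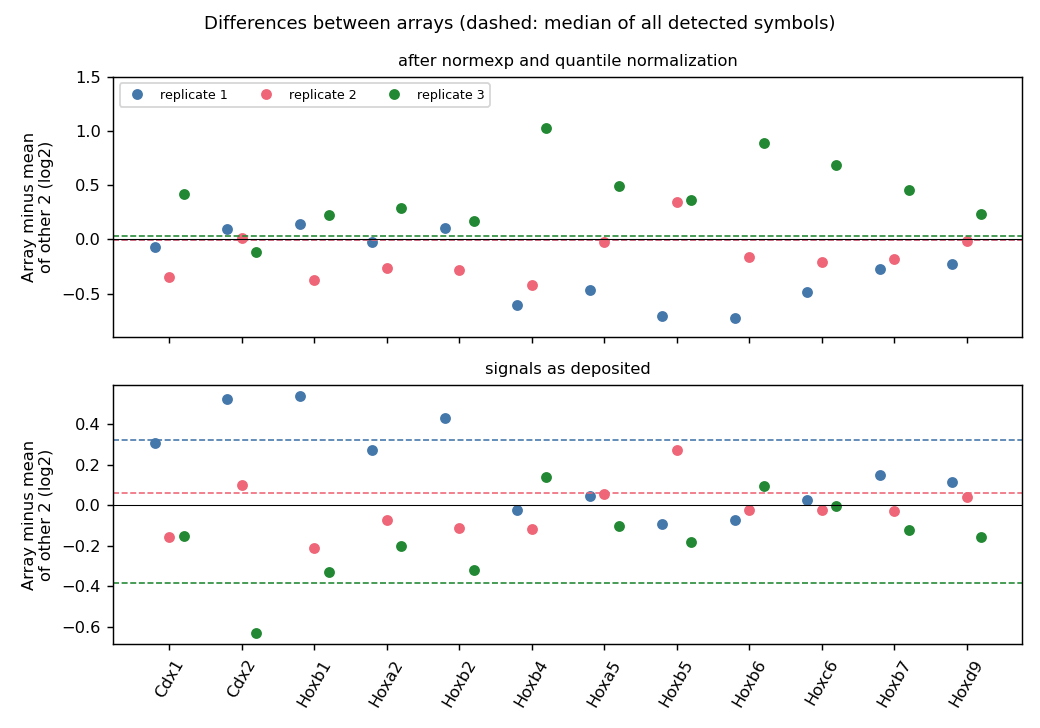
Difference of each array from the mean of the other 2 (vertical axis, log2) for the 12 detected genes described here, after normalization (top) and as deposited (bottom), with the median of all detected symbols as a dashed line per array. In the top panel, the points of replicate 3 for *Hoxb4* to *Hoxd9* lie above the line and those of replicate 1 below it; in the bottom panel the same points lie between -0.18 and 0.15 while the lines of replicates 1, 2 and 3 are at 0.32, 0.06 and -0.38.

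Genes that act with *Hox* and *Cdx* genes were taken from lists. Of 9 cofactor genes, whose proteins bind DNA together with Hox proteins, 3 were detected and 4 were called by limma. *Meis2* had signals of 10.5, 10.2 and 9.84, *Pbx2* 7.63, 7.34 and 7.23, and *Pknox1* 6.88, 6.68 and 6.68. *Pbx3* and *Meis1*, each with several probes, passed on 2 arrays, and limma called *Meis1* but not *Pbx3* or *Pknox1*.

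Of 5 ParaHox and *Evx* genes, relatives of the *Hox* genes, *Evx1* alone was detected, with signals of 9.73, 9.10 and 8.84. *Evx1* lies beyond the 5′ end of HoxA and marks the primitive streak, and the nearest *Hox* gene, *Hoxa13*, passed on no array. *Evx2*, beyond the 5′ end of HoxD, passed on no array either.

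Of 6 signals and retinoid genes known to act on *Hox* and *Cdx* genes, 4 were detected. *Wnt3a*, a signal of the streak and tail bud, had signals of 10.1, 9.46 and 9.35, *Fgf8* 8.53, 8.05 and 7.99, and *Aldh1a2*, which makes retinoic acid, 7.99, 7.94 and 7.71. *Gdf11*, which acts later at the trunk-to-tail transition, passed on no array. *Egr2*, a regulator of hindbrain segments, passed on replicate 2 alone. Of 8 chromatin regulators of *Hox* clusters, 3 were detected and 6 were called by limma, among them the detected *Cbx2* (8.997, 8.67 and 8.77), *Eed* (8.21, 7.60 and 6.86) and *Bmi1* (7.09, 6.96 and 6.67). *Ezh2*, *Suz12* and *Mll1*, each with several probes, were called by limma and passed on 2, 1 and 2 arrays.

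The tissue label was checked against markers. The posterior, streak and mesoderm markers were detected in 7 of 7 cases. Visceral endoderm markers were detected in 10 of 10 cases (median level 3.68 above background). The paper describes dispersed visceral endoderm cells within the gut endoderm of the embryonic region, where it found the marker *Apoc2* undetectable at headfold stages. The source of these signals was not tested. Of 14 markers of extraembryonic ectoderm and trophoblast, 4 were detected, among them *Rhox5* at 4.36 and *Ets2* at 3.52 above background. Of 5 anterior markers, 2 were detected, *Otx2* and *Cer1*. Limma called *Otx2* (level 4.46 above background) but not *Cer1* (level 0.23, limma adjusted p 0.299). The allantois markers *Tbx4* and *Vcam1* were not detected, *Tbx4* passing on replicate 2 alone.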

How the data were processed

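Total RNA of the embryonic region of EHF stage embryos was measured on 3 bead arrays, which were treated as replicates of 1 group by their labels. The authors deposited a log2 signal per gene symbol, not normalized between arrays, a detection p-value, and the number of beads and the standard error over beads, both on the linear signal scale. They used Partek software, and the normalization behind their own figures is not given in the sources used here. Probe numbers were deduced from the mean bead numbers, as the lowest divisor that gave whole beads, and are lower limits. Symbols with 1 probe, and with detection p-values on the steps that the negative controls allow, numbered 21986 and set the noise and the background level.

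Signals were corrected with normexp, an offset of 16 was added, and arrays were quantile normalized. The level minus the background level was fitted with limma 3.58.1 (R 4.3.3) over 30854 symbols, and called above background at an adjusted p under 0.05. Tables were made with Python 3.11.15, numpy 2.4.6, pandas 2.3.3 and matplotlib 3.10.9. All *Hox* and *Cdx* genes were named, except for values of a few genes that are counted but not reported here, and of other lists at most the 3 detected genes with the highest level above background, apart from undetected genes named with the arrays they passed on and the detected markers named beside *Cdx2*, which were chosen after their values were seen. The members and lists were chosen with earlier results of these data known. Older symbols were matched through RefSeq. Probe sequences were not used here, so cross-hybridization between paralogues was not tested. The precision is limited by the number of arrays.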

Additional observations from a re-analysis of the deposited data

How the results depend on the processing

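With detection asked on the remaining 2 arrays, the count of 13 genes ranged from 13 to 14, *Cdx4* being added without replicate 3. The share of all symbols ranged from 21.1% to 24.1%. Detection on at least 1 array gave 21, since fewer arrays had to pass, with 10172 of all symbols. A detection p of 0 kept 9 and dropped *Hoxa2*, *Hoxb4*, *Hoxc6* and *Hoxd9*, which left no gene of paralogues 9 to 13. It kept 15.1% of all symbols. A detection p under 0.05 gave 15, adding *Cdx4* and *Hoxd4*, beside 24.7% of all symbols. Limma called 11 to 14 of the 42 genes over 8 alternatives, 11 to 14 without a replicate. Over the whole table the 8 alternatives called 7260 to 8540 symbols. *Hoxd9* was lost in 4 of the alternatives, *Hoxc6* in 2 and *Hoxb4* in 1, and the cause was not tested. The other 10 detected genes were called by limma in each of the 8. The scale with arrays centred on the detected symbols and the comparison within a signal range were chosen after seeing the data. No paired analysis was possible because the 3 arrays are not split into groups.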

Other observations

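*Hoxa11s*, an antisense transcript of *Hoxa11* that the naming rule leaves out, had deposited log2 signals of 6.46, 6.47 and 6.38 on replicates 1, 2 and 3. Its detection p-values were 0.772, 0.429 and 0.517, so it passed on no array, as did *Hoxa11* itself with 0.323, 0.101 and 0.991.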
